A study of Mus musculus with 8 samples.

Results

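The collagen genes of the mouse were followed in sorted intraepithelial lymphocytes, the leukocytes lodged within the epithelium of the intestine. Members were all protein-coding genes whose symbol is Col, a number, a and a number, and this rule found 44 genes among 52661 genes in the tables, of which 21817 were protein-coding. The osteopontin group comprised 4 libraries, named 1, 2, A and B, from CD45+ FACS-sorted C57BL/6 cells kept for 24 h in RPMI with 10% serum and recombinant osteopontin at 2 µg/ml. The null group comprised 4 libraries of the same names from cells sorted and kept in the same way without osteopontin, so that sorting, serum and the 24 h of culture were shared by both groups. RNA sequencing with Salmon gave estimated read counts per transcript, which were summed per gene, and library totals ran from 49108969 to 71399847 estimated reads. No label tells if separate mice or cultures gave the libraries, or if cells of several mice were pooled, so p-values measure only how far these libraries spread, which may be technical. Ptprc, the gene of CD45, had 2063, 2172, 2076 and 2074 CPM with osteopontin and 2040.4, 1943, 2047 and 1896 CPM in null. Since the cells were sorted on CD45, this level cannot tell intraepithelial lymphocytes from other leukocytes. Of the listed leukocyte and intraepithelial T cell genes, Cd3e averaged 522 CPM with osteopontin and 492 CPM in null. Itgae averaged 1225 CPM with osteopontin and 1128 CPM in null. CPM is a gene's count scaled to a fixed library size, here with TMM-scaled totals unless stated otherwise, and lists of 4 values follow the order 1, 2, A and B throughout.

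Collagens are secreted proteins whose chains wind into a helix before they assemble outside the cell, and each Col gene encodes a single kind of chain. Fibrillar collagens such as types I, III and V form the fibres of connective tissue, type VI forms beaded filaments around cells, type IV forms the sheet under epithelium and endothelium, and fibril-associated collagens decorate the surface of fibres. Fibroblasts are the main makers of the fibrillar and beaded types, endothelial and epithelial cells of type IV, and intraepithelial T cells meet collagen mostly through surface receptors such as the integrin encoded by Itga1 and Itgb1.

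Some collagen genes lie in pairs, and the sequences between the pairs and before a few other members are shown first because the values below turn on which members moved together. In the GENCODE M21 annotation of GRCm38, matched by gene identifier, Col4a1 on the minus strand and Col4a2 on the plus strand of chromosome 8 lie head to head and share their first 22 bases, at chr8:11312805-11312826. Col4a4 and Col4a3 lie head to head on chromosome 1 with a gap of 71 bases at chr1:82586850-82586920. Both are given on the plus strand from RefSeq windows of GRCm38.p6, with the GC box (GGGCGG, or CCGCCC where it lies on the other strand) in capitals.
Col4a1/Col4a2 shared bases: agtgcgcGGGCGGcgtctccaa
Col4a4/Col4a3 gap: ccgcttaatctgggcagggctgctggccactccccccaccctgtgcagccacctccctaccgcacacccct

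The next sequences are the 120 bases before the RefSeq start of 3 members whose level varied widely between libraries and of 2 that varied less, each on the gene's own strand. Capitals mark a GC box, a TATA box (TATAAA) or a CCAAT box (CCAAT), searched on both strands, and neighbouring matches that overlap form 1 run of capitals. Positions are chr1:45311418-45311537 (plus) for Col3a1, chr2:27886305-27886424 (plus) for Col5a1, chr10:76623405-76623524 (minus) for Col6a2, chr17:34039018-34039137 (plus) for Col11a2 and chr9:108953466-108953585 (plus) for Col7a1.
Col3a1 upstream: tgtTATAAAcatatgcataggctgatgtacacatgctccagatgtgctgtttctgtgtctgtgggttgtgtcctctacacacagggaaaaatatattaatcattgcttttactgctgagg
Col5a1 upstream: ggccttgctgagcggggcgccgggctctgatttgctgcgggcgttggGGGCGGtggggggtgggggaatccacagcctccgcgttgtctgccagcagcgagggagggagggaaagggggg
Col6a2 upstream: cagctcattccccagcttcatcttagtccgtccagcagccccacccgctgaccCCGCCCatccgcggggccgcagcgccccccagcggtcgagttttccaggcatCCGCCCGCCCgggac
Col11a2 upstream: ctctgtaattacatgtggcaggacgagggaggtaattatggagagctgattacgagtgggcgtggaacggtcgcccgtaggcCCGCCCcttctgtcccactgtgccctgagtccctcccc
Col7a1 upstream: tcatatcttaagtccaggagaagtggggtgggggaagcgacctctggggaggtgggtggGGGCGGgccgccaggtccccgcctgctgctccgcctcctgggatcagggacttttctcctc

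Of the 44 members, 35 had a RefSeq window. In the 250 bases before the start, a GC box was found in 21 of these (60%), against 32.7% of 32851 windows of all genes. A CCAAT box was found in 13 members (37.1%, against 33.9% of all windows) and a TATA box in 5 (14.3%, against 12.4%). A member counted if any of its windows matched, whereas the share over all genes is of single windows. A member with several windows had more chances, so the percentages are not strictly comparable. The printed stretch of Col3a1 holds a TATA box, those of Col5a1, Col6a2, Col11a2 and Col7a1 hold a GC box, so that GC boxes occur in widely varying and in less varying members. A match is a run of letters, not a measured binding site.

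Collagen reads were rare in all 8 libraries. Summed over the 44 genes they made up 0.00517%, 0.00507%, 0.00542% and 0.0138% of the reads of the osteopontin libraries, and 0.0399%, 0.00940%, 0.0227% and 0.00795% of those of the null libraries. On plain totals the sum was 51.7, 50.7, 54.2 and 138.4 CPM in osteopontin libraries, against 398.5, 94.0, 227.5 and 79.5 CPM in null libraries. Null libraries 1 and A were the highest, osteopontin B lay above null 2 and null B, and the groups overlapped. The group means were 73.8 ± 43.1 CPM with osteopontin and 199.9 ± 148.2 CPM in null (SD, n = 4 each). At these depths 3 reads correspond to 0.0420 to 0.0611 CPM, and values below this cannot be told from a count of 0. At least 10 reads were found for 19, 25, 18 and 22 members in the osteopontin libraries and for 32, 27, 32 and 19 members in the null libraries. In bulk RNA such as this, fewer cells of a type and less RNA per cell cannot be told apart.

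The order of the genes differed between the groups when set per length, as TPM over protein-coding transcripts. With osteopontin the highest means were those of Col20a1 (3.17 TPM), Col11a2 (2.97 TPM), Col4a1 (2.25 TPM, nearly all from library B) and Col1a1 (1.68 TPM). In null libraries they were those of Col3a1 (9.65 TPM), Col1a1 (5.61 TPM), Col1a2 (5.43 TPM) and Col4a1 (4.26 TPM). The first 3 of the null order were all highest in libraries 1 and A. In null 2 and null B, Col3a1 stood at 0.738 and 0.411 TPM, and Col11a2 at 3.32 and 4.51 TPM.

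**Figure D1:**
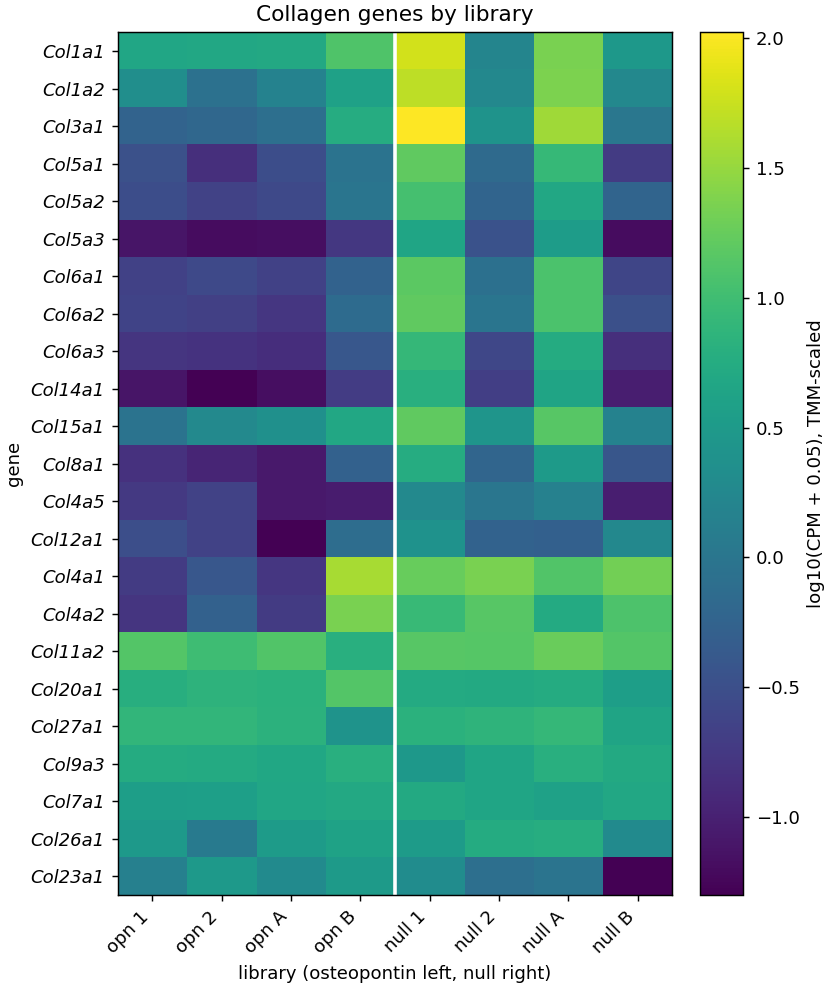
Level of each of the 23 collagen genes described by value (rows) in each library (columns, osteopontin left of the white line and null right of it), as log10 of TMM-scaled CPM plus 0.05. The genes from Col1a1 to Col12a1 are mostly bright in null 1 and null A, Col4a1 and Col4a2 are dark in osteopontin 1, 2 and A, and the genes from Col11a2 to Col26a1 keep a more even shade.

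Of the 44 members, 25 passed the filter on low counts and 19 did not, Col5a3, Col14a1 and Col16a1 among these 19. A gene can pass through the libraries in which it is high, so counts over the 25 describe these genes alone. With edgeR's quasi-likelihood test, 0 of the 25 were called at an adjusted p under 0.05, and 0% of all 18631 genes were called in either direction. Every adjusted p of a collagen gene was 1.00 after rounding. At an unadjusted p under 0.05 there were 9 collagen genes, 8 fitted lower with osteopontin and 1 higher, against 3.93% of all tested genes (2.08% lower and 1.85% higher). In the same fit, 19 of the 25 were lower and 6 higher, against 49.9% of all genes fitted lower, and their median log2 fold change of osteopontin over null was -0.96, against 0.00 over all genes. In CPM, the groups did not overlap for 2 of the 25, Col11a2 and Col20a1, against 3.47% of all tested genes (1.58% lower and 1.88% higher).

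Other tools differed. DESeq2 called 7 of the 31 collagen genes to which it gave an adjusted p as lower with osteopontin and 0 as higher, where it called 0.291% of all genes lower and 0.104% higher. The 7 were Col5a2, Col5a3, Col6a1, Col6a2, Col6a3, Col8a1 and Col14a1, with log2 fold changes from -5.88 to -3.41 and adjusted p from 0.00448 to 0.0340. limma voom called 0 collagen genes and 0 genes in all. Null libraries 1 and A were both above the other 6 libraries for 20 of the 44 members, and for 13 of the 25 tested ones, against 3.74% of all tested genes. This pattern was noticed in the data and is given as a description. It was found in 8 of 11 fibrillar, 4 of 6 beaded filament, 3 of 6 basement membrane, 3 of 9 fibril-associated, 1 of 2 multiplexin and 1 of 3 short-chain members, and in 0 of 4 transmembrane and 0 of 3 anchoring and other members.

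The fibrillar collagens made up the largest class sum in null 1, null A and osteopontin 1, 2 and A. In osteopontin B, null 2 and null B the basement membrane sum was larger. The fibrillar sum averaged 29.0 ± 3.43 CPM with osteopontin and 113 ± 117 CPM in null on plain totals (SD, n = 4 each). Col3a1, the chain of type III collagen found in soft, distensible tissues, lay at 0.522, 0.604, 0.772 and 5.65 CPM with osteopontin, against 106, 2.47, 35.2 and 0.988 CPM in null. Null 1 and null A were far above the rest, osteopontin B came next, and null 2 and null B fell within the range of the osteopontin libraries. Its log2 fold change was -4.28 (95% interval -8.63 to 0.08), and the gene was not called. Without null libraries 1 and A the fitted log2 fold change was 0.12. Null 1 and null A were picked for being highest, so leaving them out had to raise this value. The same holds below for genes with that profile.

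Col1a1 and Col1a2 encode the chains of type I collagen, the most abundant collagen of connective tissue. Col1a1 was measured at 4.55, 4.89, 4.97 and 12.8 CPM with osteopontin, against 63.1, 1.59, 22.6 and 2.88 CPM in null. All 4 osteopontin libraries lay between null 2 and null B on the low side and null 1 and null A on the high side. Col1a2 stood at 2.13, 0.825, 1.42 and 4.003 CPM with osteopontin, against 49.4, 1.73, 23.5 and 1.75 CPM in null, with null 1 and null A again on top. The log2 fold changes were -1.73 (SE 1.20) for Col1a1 and -3.19 (SE 1.30) for Col1a2. Without null 1 and null A they were 1.60 and 0.27, neither of them called.

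The type V chains, which co-assemble with type I and set the width of its fibrils, followed Col3a1. Col5a1 had 0.282, 0.0888, 0.258 and 0.874 CPM with osteopontin and 16.3, 0.646, 8.43 and 0.140 CPM in null (log2 fold change -4.09, SE 1.55). Col5a2 lay at 0.260, 0.177, 0.223 and 0.935 CPM with osteopontin and at 10.9, 0.534, 4.91 and 0.537 CPM in null (log2 fold change -3.41, SE 1.03), and was called lower by DESeq2 with an adjusted p of 0.0340. Without null 1 and null A the fitted log2 fold changes were -0.07 for Col5a1 and -0.44 for Col5a2, neither of them called by edgeR. Col5a3 had 2, 1, 1 and 6 reads in osteopontin libraries, against 258, 19, 246 and 1 reads in null libraries. Null B thus held no more Col5a3 than the osteopontin libraries, although DESeq2 called the gene lower (log2 fold change -5.53, adjusted p 0.00774). Without both libraries named B, edgeR tested it and called it lower, with a log2 fold change of -6.95 and an adjusted p of 0.00724. That fit leaves out the lowest null library and the highest osteopontin library of this gene, which widens the gap, so its call is no separate support. The other edgeR fits that tested Col5a3 did not call it.

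Col11a2 and Col27a1, fibrillar genes best known from cartilage, varied less between libraries. Col11a2 was counted among the fibrillar genes with null 1 and null A on top, but the lower of these was only 1.06 times the next library. For Col3a1 that factor was 6.23. Col11a2 was measured at 13.5, 9.79, 13.1 and 6.14 CPM with osteopontin, against 14.6, 13.9, 18.4 and 13.7 CPM in null, so that every osteopontin library was below every null library. The gap was small, since osteopontin 1 at 13.5 CPM and null B at 13.7 CPM nearly touched. In TPM over coding transcripts the groups of Col11a2 overlapped, with osteopontin 1 at 3.72 TPM and null 1 at 3.54 TPM. Its log2 fold change was -0.51 (SE 0.24, 95% interval -1.02 to 0.00) and it was not called. Of its reads, 98.2% in osteopontin libraries and 95.7% in null libraries were assigned to protein-coding transcripts. Col27a1 stood at 7.70, 7.73, 6.81 and 2.50 CPM with osteopontin and at 6.55, 7.32, 8.14 and 4.34 CPM in null, with the lowest value in each group in library B (log2 fold change -0.09, SE 0.35). Col2a1, the type II chain of cartilage, had 0.112, 0.559, 0.874 and 0 CPM with osteopontin and 1.02, 0.314, 1.67 and 0.0153 CPM in null. It was counted with null 1 and null A on top as well, by a factor of 1.17 over the next library.

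**Figure D2:**
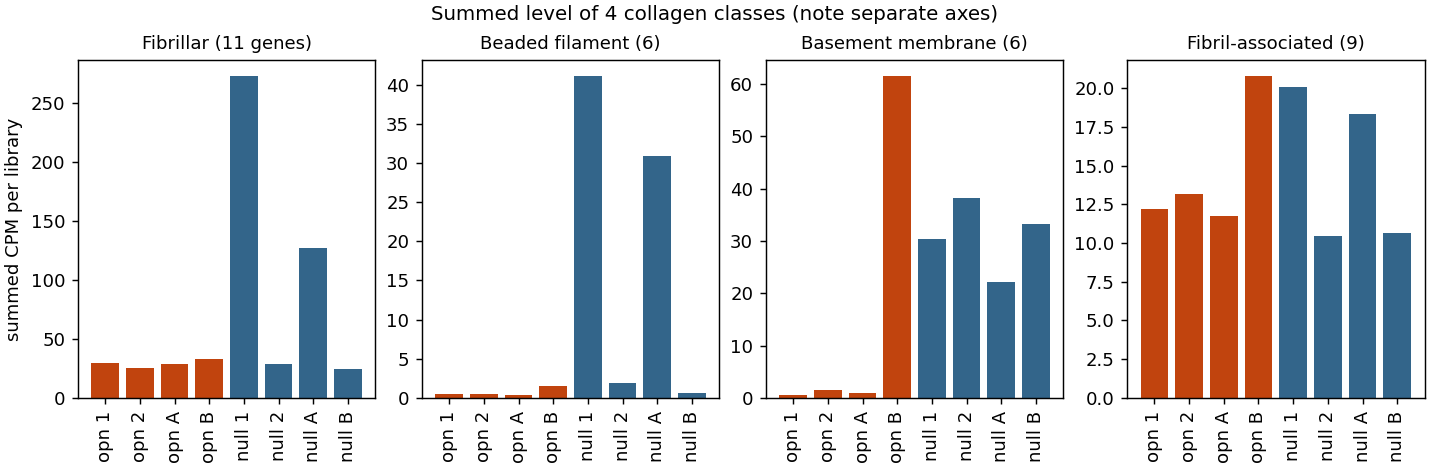
Summed level of 4 structural classes in each library, in CPM on plain totals, with osteopontin libraries in orange on the left and null libraries in blue on the right, and a separate linear axis from 0 for each class. The fibrillar sum reached 272.9 and 126.8 CPM in null 1 and null A and lay between 24.3 and 33.4 CPM in the other libraries, whereas the basement membrane sum was under 1.5 CPM in osteopontin 1, 2 and A and at least 22.1 CPM in the other 5.

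The beaded filament genes of type VI collagen, which links cells to the fibres around them, were low outside null 1 and null A. Col6a1 lay at 0.169, 0.221, 0.171 and 0.508 CPM with osteopontin, against 15.2, 0.785, 12.1 and 0.199 CPM in null (log2 fold change -4.73, SE 1.41). Col6a2 was measured at 0.183, 0.162, 0.120 and 0.671 CPM with osteopontin, against 16.5, 0.943, 12.1 and 0.276 CPM in null (log2 fold change -4.72, SE 1.45). Null B lay inside the range of the osteopontin libraries for both genes, so the groups overlapped. Col6a3 stood at 0.112, 0.103, 0.0857 and 0.345 CPM with osteopontin, against 8.25, 0.204, 5.51 and 0.0920 CPM in null (log2 fold change -4.44, SE 1.33). DESeq2 called these 3 genes lower, with adjusted p of 0.0271 for Col6a1, 0.0305 for Col6a2 and 0.0125 for Col6a3. Without null 1 and null A the fitted log2 fold changes were -0.88 for Col6a1, -1.11 for Col6a2 and 0.12 for Col6a3. Of the other type VI chains, Col6a6 reached at most 1.02 CPM, in null A, Col6a5 at most 0.0866 CPM, in null 1, and Col6a4 had 0 reads in every library.

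Fibril-associated collagens were mixed. Col14a1, a chain that binds the surface of type I fibrils, had 2, 0, 1 and 7 reads in osteopontin libraries, against 359, 10, 313 and 3 reads in null libraries, and DESeq2 called it lower (log2 fold change -5.88, adjusted p 0.00448). Null B had fewer Col14a1 reads than osteopontin B. Col12a1, its close relative, had 0.267, 0.177, 0 and 0.711 CPM with osteopontin and 2.46, 0.503, 0.474 and 1.73 CPM in null (log2 fold change -2.16, SE 1.22). Col16a1 exceeded 1 CPM in null 1 (2.88 CPM) and null A (1.52 CPM) alone.

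In CPM, Col20a1 was the only tested collagen gene for which each osteopontin library exceeded each null library. It lay at 6.04, 7.08, 6.57 and 13.7 CPM with osteopontin, against 5.39, 5.17, 5.58 and 3.62 CPM in null, with library B the highest of the osteopontin group and the lowest of the null group. The means were 8.34 ± 3.57 CPM with osteopontin and 4.94 ± 0.90 CPM in null (SD, n = 4 each). In TPM over coding transcripts the groups overlapped, at 2.13, 2.26, 3.01 and 5.29 with osteopontin and 1.95, 1.67, 3.095 and 1.19 in null. Of the 672 reads in osteopontin B, 500 were assigned to 1 coding transcript that had at most 1.31 reads in any other library. The log2 fold change of Col20a1 was 0.75 (SE 0.31, unadjusted p 0.0297 in edgeR's test), and it was not called. Without osteopontin B the log2 fold change was 0.41, without both B libraries it was 0.29, and over all alternatives it stayed between 0.29 and 0.92. Col9a3, a chain of type IX collagen, was measured at 5.43, 5.31, 4.77 and 6.14 CPM with osteopontin and at 2.89, 4.51, 6.17 and 5.18 CPM in null (log2 fold change 0.21, SE 0.32). On protein-coding transcripts alone its log2 fold change was -0.38. Its exons overlap 234 bases of the antisense gene Tcfl5, and no source used here tells if the counting used strand.

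Of the basement membrane genes, Col4a1 and Col4a2 had a profile apart from the collagens above. They encode the chains of the common type IV network. Col4a1 stood at 0.140, 0.353, 0.120 and 38.5 CPM with osteopontin, against 17.8, 22.9, 13.4 and 20.7 CPM in null. Col4a2 had 0.112, 0.486, 0.137 and 22.7 CPM with osteopontin, against 8.77, 14.2, 5.35 and 12.6 CPM in null. In reads, osteopontin 1, 2 and A held 10, 24 and 7 for Col4a1 where osteopontin B held 1895. For both genes osteopontin B was the highest of all 8 libraries, the other osteopontin libraries were the lowest, and the 4 null libraries lay between. This order was not particular to them, since Hspg2 and Timp3, from the gene lists described below, had it too. Hspg2 stood at 0.463, 0.147, 0.703 and 26.2 CPM with osteopontin, against 17.2, 19.4, 18.4 and 20.5 CPM in null. The log2 fold changes over all libraries were -0.94 (SE 1.83) for Col4a1 and -0.81 (SE 1.71) for Col4a2, and neither was called.

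One library decided these values. Without osteopontin B, edgeR called 2 of 30 tested collagen genes lower and 0 higher, where it called 0.177% of all genes lower and 0.0101% higher. They were Col4a1 (log2 fold change -6.49, adjusted p 2.90e-07) and Col4a2 (log2 fold change -5.37, adjusted p 9.32e-04). Without both libraries named B it called 4 of 30 lower and 0 higher, where it called 0.247% of all genes lower and 0.00514% higher. Col4a1 was then at -6.44 (adjusted p 2.18e-06), Col4a2 at -5.25 (adjusted p 0.00324) and Col8a1 at -5.56 (adjusted p 0.00977), and the other one was Col5a3. For Col8a1 and Col5a3, null B was the lowest null library and osteopontin B the highest osteopontin library. For Col4a1 and Col4a2, osteopontin B was the highest library of all. Leaving it out thus had to lower their fitted values and narrow the osteopontin spread, so their calls in both fits are no separate support.

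Of the 2 genes that share the printed 22 bases, Col4a1 had the higher level in each library with enough reads. Col4a1 over Col4a2, in TPM over coding transcripts, was 1.66 in osteopontin B, and 2.03, 1.57, 2.43 and 1.79 in the null libraries, the 5 libraries with at least 50 reads of each. Across the same libraries Col4a1 itself ranged from 2.93 to 8.95 TPM. Type IV collagen is commonly made of Col4a1 and Col4a2 chains in a fixed proportion. The ratio of Col6a1 to Col6a2, chains that also assemble together, was 0.913, 0.806 and 0.990 in null 1, 2 and A, the libraries with enough reads.

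For type I collagen the ratio could be taken in every library, whereas that of type IV lacked osteopontin 1, 2 and A, so their spreads are not comparable. Col1a1 over Col1a2 was 1.48, 3.78, 3.14 and 2.39 in osteopontin libraries, against 1.15, 0.833, 0.831 and 0.867 in null libraries, so the groups did not overlap. Col1a2 rested on 52.6 to 197 coding reads in the osteopontin libraries. This ratio was one of 7 pairs examined and was singled out after its values were seen, so no test is given. Col3a1 over Col1a1 was 0.471 in osteopontin B, against 1.78, 1.92, 1.67 and 0.585 in null libraries.

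The rarer type IV chains, known from kidney, lung and other specialised basement membranes, differed among themselves. Col4a3 had 0.0281, 0, 0.0686 and 0.0610 CPM with osteopontin and 0.797, 0.110, 0.712 and 0.0307 CPM in null. Col4a4, its head-to-head neighbour, had 0.0562, 0, 0 and 0.0612 CPM with osteopontin and 0.884, 0.393, 1.03 and 0.0153 CPM in null. Both neighbours were highest in null 1 and null A, unlike Col4a1 and Col4a2. Col4a5 lay at 0.126, 0.177, 0.0343 and 0.0406 CPM with osteopontin and at 1.77, 0.958, 1.41 and 0.0460 CPM in null, where library B was low in both groups (log2 fold change -3.43, SE 1.33). Col4a6, the neighbour of Col4a5, had 0.0562, 0.471, 0.480 and 0 CPM with osteopontin and 0.243, 0, 0.154 and 0 CPM in null, highest in osteopontin 2 and A, and its fitted log2 fold change of 1.33 (SE 1.90) was not called.

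Multiplexins, the collagens of basement membrane zones, included Col15a1 and Col18a1. Col15a1 was measured at 0.885, 1.80, 2.31 and 4.92 CPM with osteopontin, against 16.5, 2.69, 14.6 and 1.43 CPM in null (log2 fold change -1.83, SE 0.89). It was thus highest in null 1 and null A, and without them its fitted log2 fold change was 0.26. Col18a1 stood at 0.239, 0.191, 0 and 2.95 CPM with osteopontin and at 0.503, 0.848, 0.433 and 0.859 CPM in null, with osteopontin B the highest. Col8a1, a short-chain collagen of the network under endothelium, had 0.0990, 0.0589, 0.0343 and 0.495 CPM with osteopontin, against 5.65, 0.550, 3.21 and 0.337 CPM in null (log2 fold change -3.85, SE 1.11), and DESeq2 called it lower with an adjusted p of 0.0340. Without null 1 and null A its fitted log2 fold change was -1.39.

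**Figure D3:**
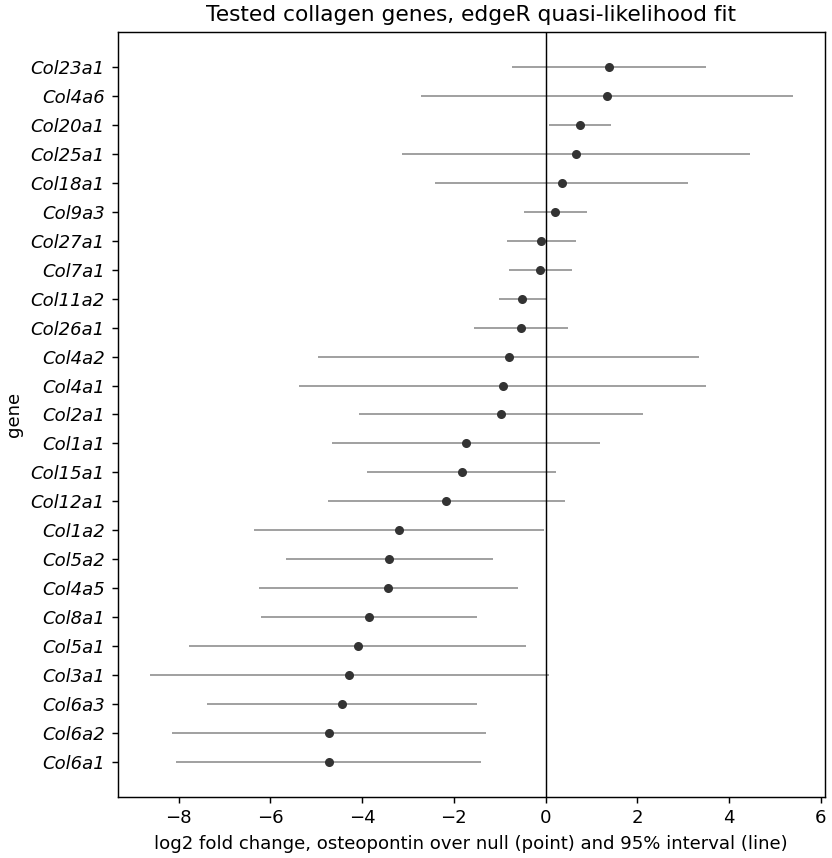
Log2 fold change of osteopontin over null for the 25 tested collagen genes, with points for edgeR's estimates and lines for 95% intervals. The intervals are widest for genes that vary between libraries of 1 group, such as Col3a1 (-8.63 to 0.08), and narrow for Col7a1 (-0.80 to 0.57), and 19 of the points lie left of 0.

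Among the remaining members, Col7a1 varied least. Col7a1, the anchoring fibril collagen that ties epithelium to the tissue beneath, lay at 3.61, 3.77, 4.61 and 5.06 CPM with osteopontin and at 5.25, 4.40, 3.91 and 4.91 CPM in null (log2 fold change -0.11, 95% interval -0.80 to 0.57). Its highest value was 1.45 times its lowest, where for Col3a1 that factor was 202. Col23a1, a transmembrane collagen, was measured at 1.33, 3.08, 1.89 and 3.21 CPM with osteopontin and at 1.99, 0.770, 0.893 and 0 CPM in null, where null B had none (log2 fold change 1.38, SE 0.99). Col26a1 stood at 3.09, 1.08, 3.29 and 4.10 CPM with osteopontin and at 3.34, 5.52, 5.90 and 1.92 CPM in null (log2 fold change -0.53, SE 0.48). There were 9 members with under 20 reads in all 8 libraries together.

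The gene totals of some members did not stand for coding mRNA. Of the reads of Col26a1, 0% in osteopontin libraries and 0.12% in null libraries were assigned to protein-coding transcripts, and 96.8% over all libraries to 1 retained-intron transcript of 578 bases. For Col27a1 the coding share was 15.5% in osteopontin libraries and 20.7% in null libraries, and the retained-intron share was 57.6% in osteopontin libraries and 54.0% in null libraries. The coding share of Col9a3 was 54.1% with osteopontin and 78.9% in null, and that of Col7a1 was 80.2% with osteopontin and 86.8% in null. By contrast, Col3a1 had 99.0% coding reads with osteopontin and 99.9% in null, and Col20a1 had 98.9% with osteopontin and 98.5% in null. These shares are Salmon's assignments over the reads of 4 libraries per group and were not tested.

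**Figure D4:**
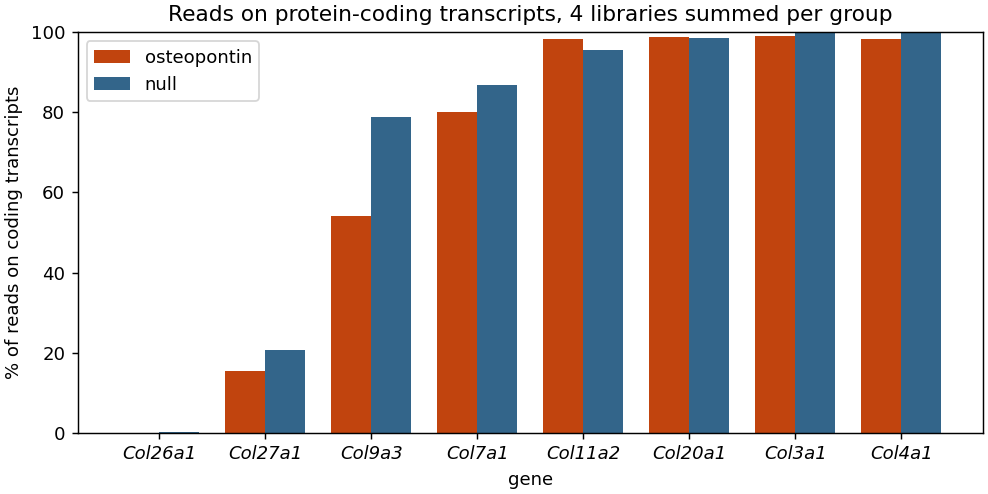
Share of a gene's estimated reads assigned to protein-coding transcripts, in percent, with the reads of the 4 libraries of a group summed, osteopontin in orange left of null in blue. Col26a1 has almost no coding reads and Col27a1 under 21%, whereas Col11a2, Col20a1, Col3a1 and Col4a1 are above 95% in both groups.

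The genes that make and handle collagen were read from lists chosen with earlier results of these data known, and edgeR called 0 genes in each. Of 20 tested genes for chain hydroxylation, folding and export, 5 were fitted higher and 15 lower, with a median log2 fold change of -0.08, and DESeq2 called 0. Plod1, a lysyl hydroxylase, had 13.7, 15.8, 14.0 and 15.2 CPM with osteopontin and 14.5, 15.2, 16.1 and 12.3 CPM in null (log2 fold change 0.01, SE 0.17). Serpinh1, the chaperone dedicated to procollagen, had 1.29, 0.927, 0.874 and 8.68 CPM with osteopontin, against 15.4, 5.09, 7.80 and 4.58 CPM in null. It was low in osteopontin 1, 2 and A, as Col4a1 was, and its log2 fold change was -1.49 (SE 0.87).

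Of 10 tested genes for procollagen processing and cross-linking, 2 were fitted higher and 8 lower (median log2 fold change -1.89). DESeq2 called Lox and Loxl1, enzymes that cross-link collagen and elastin, lower, where it called 0.291% of all genes lower. It also called Pcolce2 lower, an enhancer of procollagen trimming that edgeR's filter had removed. Loxl1 lay at 0.0421, 0.0589, 0.0343 and 0.224 CPM with osteopontin, against 9.22, 0.298, 5.89 and 0.0460 CPM in null (log2 fold change -5.43, SE 1.57, adjusted p 0.00142 in DESeq2). Loxl3, from the same enzyme family, was measured at 16.4, 12.5, 17.6 and 13.0 CPM with osteopontin and at 14.7, 12.9, 17.7 and 10.8 CPM in null (log2 fold change 0.09, SE 0.20). Of 14 tested collagenases and inhibitors, 1 was fitted higher and 13 lower (median -0.46), and DESeq2 called Mmp2, a gelatinase, lower. Mmp2 stood at 0.0281, 0.0883, 0.0343 and 0.589 CPM with osteopontin, against 12.0, 0.534, 10.5 and 0.767 CPM in null.

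Of 24 other tested matrix genes, 1 was fitted higher and 23 lower (median -2.35), and DESeq2 called Dcn, Tnxb, Nid1 and Lama2 lower. Nid1, a linker of laminin and type IV collagen, had 4.31, 3.03, 4.34 and 4.51 CPM with osteopontin, against 21.2, 8.22, 20.6 and 4.61 CPM in null (log2 fold change -1.75, SE 0.42, adjusted p 0.0138 in DESeq2). Null B at 4.61 CPM lay just above osteopontin B at 4.51 CPM, so the groups did not overlap. Null 1 and null A were both above the other 6 libraries for 18 of the 26 matrix genes and 8 of the 13 processing genes, against 2 of the 21 synthesis genes.

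This profile was seen in 2 of the 11 collagen receptors, Ddr2 and Itga11. Of 9 receptors tested with edgeR, 6 were fitted higher and 3 lower (median log2 fold change 0.07), and neither edgeR nor DESeq2 called any. Itga1, the collagen-binding chain carried by most intraepithelial T cells, lay at 784, 817, 718 and 755 CPM with osteopontin and at 748, 747, 661 and 619.6 CPM in null (log2 fold change 0.15, SE 0.07). Its partner Itgb1 was measured at 74.8, 83.0, 77.4 and 69.0 CPM with osteopontin and at 93.0, 84.1, 81.5 and 70.1 CPM in null (log2 fold change -0.11, SE 0.10). Itga2 stood at 39.0, 49.0, 48.8 and 40.2 CPM with osteopontin and at 39.2, 41.3, 41.8 and 28.8 CPM in null (log2 fold change 0.23, SE 0.13). Lair1, an inhibitory receptor for collagen, had 30.1, 16.8, 29.3 and 7.07 CPM with osteopontin and 25.6, 26.5, 22.3 and 4.97 CPM in null, with library B the lowest of each group (log2 fold change 0.07, SE 0.65). Of the discoidin receptors, Ddr1 lay at 9.72, 5.77, 6.98 and 8.64 CPM with osteopontin and at 8.02, 9.21, 8.33 and 2.15 CPM in null (log2 fold change 0.17, SE 0.37). Ddr2, the form typical of connective tissue cells, was measured at 0.0843, 0, 0 and 0.183 CPM with osteopontin and at 2.89, 0.141, 1.90 and 0.0767 CPM in null. It was removed by edgeR's filter and had an adjusted p of 0.205 in DESeq2.

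Fibroblast markers mostly had the profile of the collagens high in null 1 and null A, and most markers of other cell types did not. Null 1 and null A were above the other 6 libraries for 11 of 13 fibroblast markers, against 3.74% of all tested genes. This was so for 1 of 10 smooth muscle and pericyte markers, 0 of 12 endothelial markers and 0 of 12 epithelial markers. The fibroblast markers summed to between 287 and 320.2 CPM in osteopontin libraries and between 341 and 709 CPM in null libraries. Thy1 and Gsn, which stood above 48 CPM in every library, made up most of this. Thy1, also a T cell gene, lay between 219.8 and 280.4 CPM in all libraries, so the sum does not stand for fibroblast RNA alone. Dcn, a small proteoglycan of fibroblasts, stood at 0.183, 0.250, 0.154 and 1.10 CPM with osteopontin, against 56.1, 3.44, 56.9 and 0.399 CPM in null. Pdgfra, a receptor for platelet-derived growth factor, had 0.0421, 0.0294, 0.0343 and 0.264 CPM with osteopontin, against 4.92, 0.346, 4.80 and 0.215 CPM in null. Pdpn was at 0 in osteopontin 2, A and B, and Dpt was at 0 in osteopontin 1 and A.

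Endothelial markers followed another set of libraries. Osteopontin B, null 2 and null B were above the other 5 for 9 of 12 endothelial markers and for 1 of 13 fibroblast markers, against 3.05% of all tested genes. The same held for 3 of the 25 tested collagen genes, Col4a1, Col4a2 and Col18a1. Cdh5, the endothelial cadherin, lay at 2.19, 0.177, 0.480 and 15.8 CPM with osteopontin and at 1.59, 16.4, 1.62 and 14.7 CPM in null. The endothelial markers summed to between 59.2 and 142 CPM in osteopontin libraries and between 80.4 and 141 CPM in null libraries, with Pecam1, also a leukocyte gene, as the largest, and Lyve1 was at 0 in all libraries but null B. Col4a1 was high in null 1 and null A as well, where Cdh5 stood at 1.59 and 1.62 CPM. Smooth muscle and pericyte markers summed to between 1.94 and 10.1 CPM with osteopontin and between 6.81 and 13.3 CPM in null. Leukocyte markers summed to between 6451 and 7139 CPM in osteopontin libraries and between 6268 and 6891 CPM in null libraries. Epithelial markers summed to between 316 and 380.3 CPM in osteopontin libraries and between 308 and 376 CPM in null libraries, mostly through Cdh1. Krt8 (8.92 and 10.4 CPM) and Fabp2 (10.3 and 14.3 CPM) were highest in osteopontin B and null B. In the other libraries Krt8 reached at most 1.59 CPM and Fabp2 at most 2.25 CPM. Fabp1, Apoa1, Krt19, Krt20 and Lgals4 were highest in these libraries as well. For Cdh1, Epcam, Krt18 and Vil1 the B libraries were not both on top. The cells were sorted on CD45, a marker of leukocytes, and the purity of the sort was not measured here. The part that RNA of fibroblasts, endothelial or epithelial cells has in the collagen values was not tested.

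**Figure D5:**
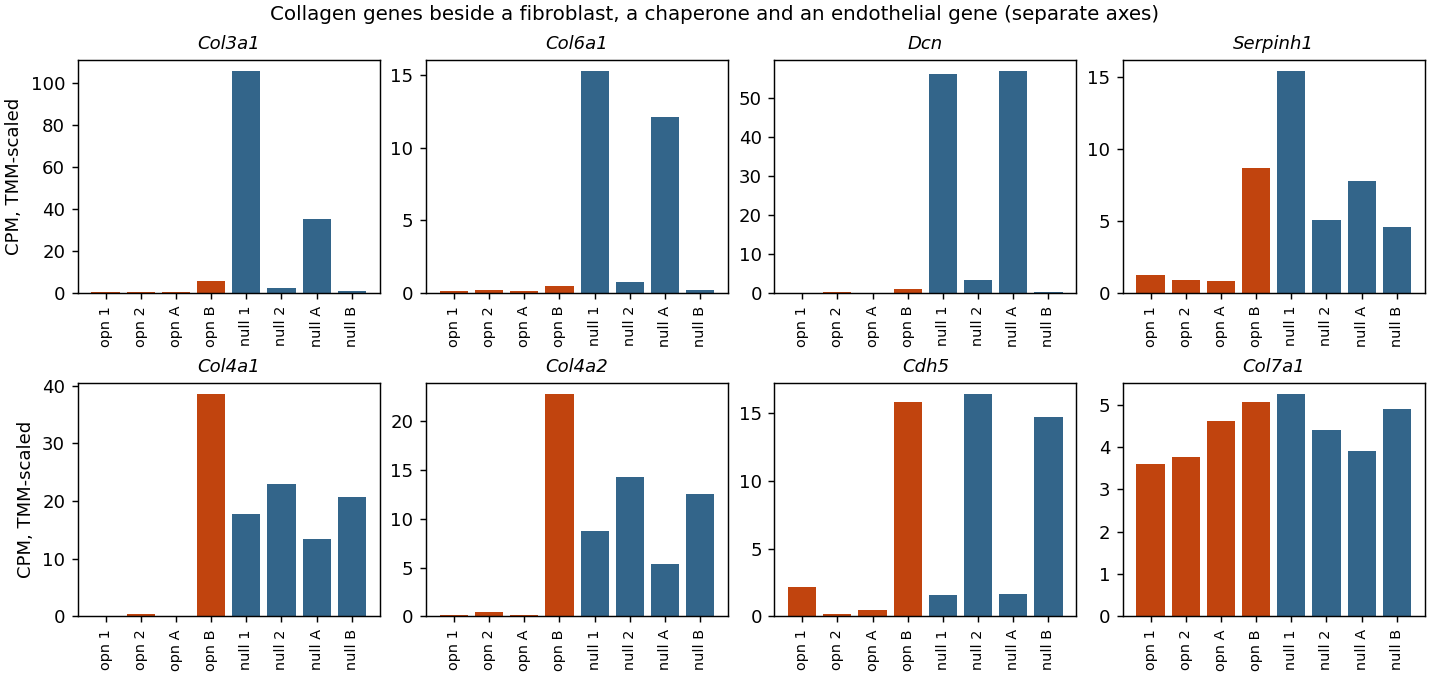
Level of 5 collagen genes and of Dcn, Serpinh1 and Cdh5 in each library, in TMM-scaled CPM, with osteopontin libraries in orange left of null libraries in blue and a separate linear axis from 0 for each gene. Col3a1, Col6a1 and Dcn are high in null 1 and null A, Cdh5 is high in osteopontin B, null 2 and null B, Col4a1 and Col4a2 are high in all of these, and Col7a1 varies from 3.61 to 5.25 CPM.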

How the data were processed

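Estimated counts, TPM and effective lengths per transcript were deposited by the authors in 1 table per library, per the file headers, for 133618 transcripts. Per the submitters' processing notes the tool was Salmon. Its version, annotation release and build were not given in the sources used here. Libraries were stranded, per the labels' protocols.

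Estimated counts were summed per gene and rounded. A count of 3 reads, taken as the floor, corresponds to 0.0420 to 0.0611 CPM, which covers counting error only. The main test was edgeR 4.0.16 (R 4.3.3): robust quasi-likelihood fit, filterByExpr with a minimum count of 10, TMM scaling, group as the only term, two-sided, with Benjamini-Hochberg adjustment over all 18631 tested genes and a threshold of 0.05. Standard errors are the fold change over the square root of F. The script was tested on simulated counts. Alternatives were DESeq2 1.42.0, limma 3.58.1 (voom), RLE scaling, no filter, the replicate name as a block, its digit or letter as a covariate, coding transcripts only, each library left out, null 1 and A left out, and both B libraries left out. Deposited TPM values were summed over coding transcripts to set genes side by side; effective lengths entered no test. Gene spans come from GENCODE M21 (GRCm38) by gene identifier, sequences from RefSeq (GRCm38.p6).

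Collagen genes were given with fold change where they were tested and averaged at least 1 CPM in the higher group, or where edgeR or DESeq2 called them, which took 23 genes; other members were named by level or counted. From each list, up to 5 genes by smallest p could be named, besides Serpinh1 and 6 receptors; Plod1, Loxl3 and the marker genes shown were chosen after their values were seen. Members, lists and tests were chosen with earlier results of these data known.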

Additional observations from a re-analysis of the deposited data

Results flagged for a closer look

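In 56 groups of 4 libraries (23 genes and 5 sums in each treatment), 15 held a library whose gap to its nearest neighbour was above Dixon's 95% critical share of the group's range, where chance gives about 5%. All 15 were osteopontin B, the highest library of its group each time, and the genes are not independent of one another. Among single genes, the widest gaps relative to the range were those of Col4a1 at 38.5 CPM and Col4a2 at 22.7 CPM, followed by Col3a1 at 5.65 CPM and Col1a1 at 12.8 CPM. Col20a1 stood at 13.7 CPM. The other genes were low also in osteopontin B: Col5a2 at 0.935 CPM, Col6a2 at 0.671 CPM, Col6a1 at 0.508 CPM, Col8a1 at 0.495 CPM, Col6a3 at 0.345 CPM and Col5a3 at 0.122 CPM. Among sums, all collagen genes stood at 138.4 CPM, the basement membrane genes at 61.5 CPM, the fibril-associated genes at 20.8 CPM and the beaded filament genes at 1.53 CPM in osteopontin B. It was also the library with the fewest reads.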

How the results depend on the processing

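Collagen genes called lower were 0 with edgeR, 7 with DESeq2, 4 without both B libraries and 0 to 2 with 1 library left out; collagen genes called higher were 0 throughout. Over all genes, DESeq2 called 21 higher and 59 lower, no filter on low counts gave 3 higher and 1 lower, leaving out both B libraries gave 1 higher and 48 lower, and leaving out 1 library gave 0 to 2 higher and 0 to 35 lower. Without null 1 and A the direction turned for Col1a1 (1.60), Col3a1 (0.12), Col1a2 (0.27), Col15a1 (0.26), Col6a3 (0.12) and Col27a1 (0.084, log2). For all of these but Col27a1, null 1 and A were the highest libraries, so a shift upward followed from the choice of libraries. Col27a1 also turned without osteopontin B (0.17), null A (0.027) and both B libraries (0.014), with a range of -0.25 to 0.17 over single libraries left out, and Col9a3 on coding transcripts only (-0.38). These causes were not tested. Of the single-gene values under alternatives, 337 kept direction and side of the threshold, 10 gained a call, 10 turned and 10 lost a call. All that lost one were Col5a3 or Col14a1, which edgeR's filter removed and whose reported value is DESeq2's; in edgeR without the filter their adjusted p were 0.135 and 0.482. With a replicate block, edgeR called 0 genes in either direction and put Col4a1 at -5.15 and Col4a2 at -4.24. Same-named libraries deviated together with correlations of 0.0712 (1), 0.0485 (2), 0.0437 (A) and 0.123 (B) over 18631 genes, and since not all exceeded 0.1 the names were not taken as pairs. Of the 8 libraries, 7 correlated best with their own name, a hint from the data and not from the design. Under 3 reads, about 0.05 CPM, levels cannot be resolved at this depth.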
